A study of Homo sapiens with 9 samples.

Results

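The death receptor and TNF ligand genes described here were 10 genes chosen by name: the ligands TNF, TNFSF10, TNFSF15 and TNFSF9, the receptors FAS, TNFRSF1A, TNFRSF10A and TNFRSF10B, the initiator caspase CASP8 and its inhibitor CFLAR. All 10 of 10 were found among the 33861 genes of the deposited expression table. RNA sequencing had been carried out on HCT116, an established human colorectal cancer cell line, in 9 libraries of 3 groups. The control cells, labelled NC, had received neither factor (3 libraries), activin-treated cells had received 100 ng/mL activin A for 5 days (3 libraries), and activin + HGF-treated cells had received the same activin treatment and then 20 ng/mL hepatocyte growth factor (HGF) for another 5 days (3 libraries). All groups were cells of the 1 line grown in medium with serum, and the culture time of the control cells is not given in the sources used here. HGF was thus given only after activin, and the activin + HGF-treated cells were also the longest treated, so the added factor and the added days cannot be told apart.

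Death receptors are members of the TNF receptor superfamily with a death domain in their cytoplasmic tail. When a ligand of the TNF family clusters them, the receptors for TRAIL (the product of TNFSF10) and FAS recruit the adaptor FADD and the initiator caspase CASP8, and the CASP8-like protein made from CFLAR can occupy the same complex and restrain the caspase. TNFRSF1A, the main receptor for TNF, first builds a complex that activates NF-kB, and it can pass to a death-inducing complex. Colorectal cancer lines are a common model for TRAIL receptor signaling, and the ligands themselves are known chiefly as products of immune cells.

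The libraries held between 57453977 and 77016167 counts. Activin-treated library 2 and activin + HGF-treated library 1 stood apart from the others of their groups: CPM denotes counts scaled to a common normalized library size, and the correlations of log2 CPM within their groups were 0.941 and 0.940 to 0.946, while the 3 control libraries correlated at 0.965 to 0.970. Both are kept in the values below, and values without them are given where they matter. The label of an epithelial line was checked against markers. Of 8 epithelial and colon markers, 6 were at 1 FPKM (fragments per kilobase of gene and per unit of library size) or more in every library, with a summed level between 555 and 875 FPKM, whereas CDX1 and VIL1 were near 0. The 8 measured leukocyte markers summed to between 0.29 and 0.98 FPKM and included none at 1 FPKM in every library, and the leukocyte gene PTPRC was at 0 in 8 of 9 libraries. The 4 endothelial markers summed to between 0.02 and 0.38 FPKM. Of 5 measured fibroblast markers, COL1A1 alone was at 1 FPKM in every library, and the sum was highest with activin (4.58 to 6.04 FPKM), against 2.62 to 2.69 FPKM in the controls and 2.88 to 3.65 FPKM after HGF. In bulk RNA, fewer expressing cells and less RNA per cell cannot be told apart.

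TNFRSF10B, which encodes the TRAIL receptor DR5, rose about 4-fold with activin and lay between the other groups after HGF. TNFSF9, which encodes the costimulatory ligand 4-1BBL, was highest in activin + HGF-treated cells. FAS, the receptor for FAS ligand, was lower in activin + HGF-treated cells than in control cells, about 4-fold. CASP8 was lowest in activin + HGF-treated cells, and the ligand genes TNF, TNFSF10 and TNFSF15 were close to 0 in every group.

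To ask how strongly each gene was expressed, levels were compared per length as FPKM. In control cells the order was TNFRSF10B at 24.3 ± 0.923 FPKM (SD, n = 3), TNFSF9 at 17.6 ± 1.27, TNFRSF1A at 15.7 ± 1.29, TNFRSF10A at 8.91 ± 0.620, CASP8 at 3.65 ± 0.522, FAS at 2.16 ± 0.0681 and CFLAR at 0.437 ± 0.0709 FPKM. No 2 neighbours in that order overlapped between libraries. In activin-treated cells TNFRSF10B led at 105 ± 3.33 FPKM, and TNFSF9 at 31.8 ± 6.41 FPKM overlapped TNFRSF1A at 25.7 ± 3.18 FPKM. At the low end FAS, at 1.07 ± 0.580 FPKM, overlapped CFLAR at 0.523 ± 0.0802 FPKM. In activin + HGF-treated cells TNFSF9 came first by mean at 69.3 ± 37.3 FPKM and TNFRSF10B second at 43.1 ± 14.6 FPKM, but their libraries overlapped. That order rested on library 1, with TNFSF9 at 112.25 and TNFRSF10B at 26.42 FPKM. TNFRSF10B was the higher gene in library 2 (53.63 against 49.72 FPKM) and library 3 (49.15 against 45.83 FPKM). The libraries of TNFRSF1A at 17.4 ± 5.05 FPKM and TNFRSF10A at 10.4 ± 4.26 FPKM also overlapped. CASP8 at 1.79 ± 0.697, FAS at 0.42 ± 0.0361 and CFLAR at 0.287 ± 0.0208 FPKM followed without overlap. The level of CFLAR per length depends on the gene model. Its counts per FPKM were 7.15 times those of the median gene, and its exons span 22529 bases in GENCODE 29 with a longest transcript of 14672 bases. Per kilobase of longest transcript, CFLAR stood at 0.751 CPM, FAS at 5.26 CPM and CASP8 at 10.1 CPM in control cells, the same order as in FPKM. That is no separate check, because the longest transcript of CFLAR is itself far longer than those of FAS and CASP8. Whether CFLAR would rank below FAS with a shorter transcript was not tested.

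**Figure D1:**
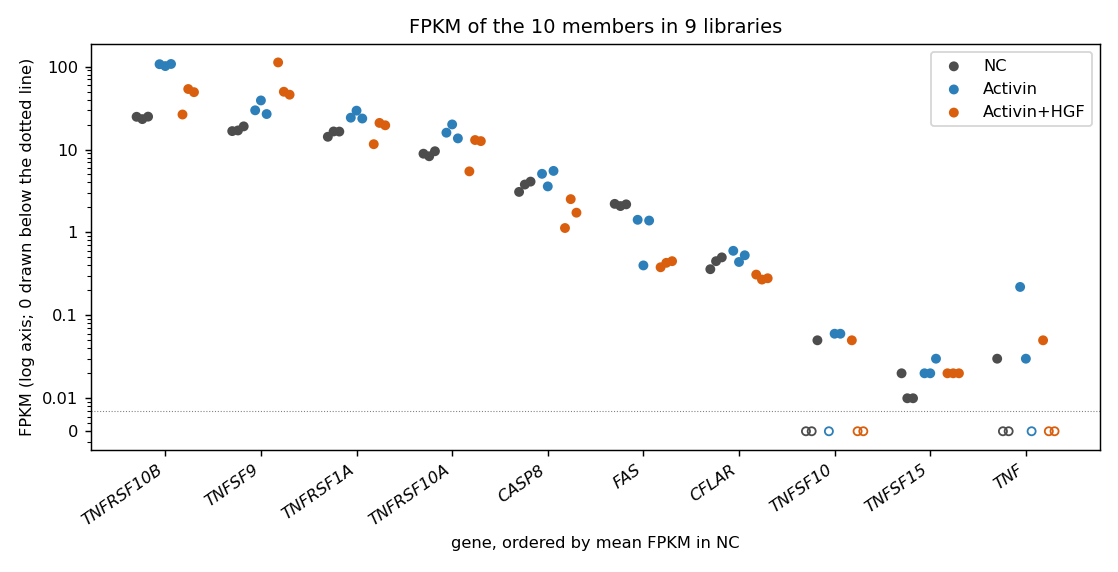
FPKM (log axis) of the 10 genes in each of the 9 libraries, ordered by their mean in control (NC) cells, with values of 0 drawn as open points below the dotted line. TNFRSF10B, TNFSF9, TNFRSF1A and TNFRSF10A lay at 5.45 FPKM or more in every library, and TNF, TNFSF10 and TNFSF15 at 0.22 FPKM or less.

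The first group were the ligands. For 3 of the 4, the 250 bases before the RefSeq transcription start are shown (GRCh38.p14), since these ligands sat at opposite ends of the range of levels and yet shared the TATA letters just upstream of the start. Capitals mark matches, on either strand, to the core promoter element TATAAA, to the GC box GGGCGG and to GAAANNGAAA, the core of the interferon-stimulated response element. TGANTCA (AP-1) and the kappaB consensus were also searched and had no match in these 3 windows.
The TNFSF9 window is chr19:6530776-6531025 (+ strand).
TNFSF9: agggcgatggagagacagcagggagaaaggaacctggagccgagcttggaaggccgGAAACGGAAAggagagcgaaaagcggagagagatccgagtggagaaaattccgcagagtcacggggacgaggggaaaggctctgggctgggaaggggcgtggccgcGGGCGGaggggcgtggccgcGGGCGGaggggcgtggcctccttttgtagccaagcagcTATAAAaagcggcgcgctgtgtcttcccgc
The TNFSF10 window is chr3:172523431-172523680 (- strand).
TNFSF10: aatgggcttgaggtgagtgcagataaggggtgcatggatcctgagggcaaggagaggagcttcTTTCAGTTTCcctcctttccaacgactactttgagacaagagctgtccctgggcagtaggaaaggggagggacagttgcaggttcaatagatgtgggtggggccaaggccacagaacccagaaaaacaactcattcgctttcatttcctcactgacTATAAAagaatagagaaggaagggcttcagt
The TNF window is chr6:31575315-31575564 (+ strand).
TNF: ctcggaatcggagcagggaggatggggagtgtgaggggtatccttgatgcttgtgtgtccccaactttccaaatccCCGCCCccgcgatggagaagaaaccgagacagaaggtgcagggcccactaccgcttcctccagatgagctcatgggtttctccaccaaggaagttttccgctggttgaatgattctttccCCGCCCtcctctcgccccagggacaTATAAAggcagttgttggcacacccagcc

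A TATAAA match began 30 bases before the start of TNFSF9, 31 before that of TNFSF10 and 29 before that of TNF. The window of the remaining ligand, TNFSF15, which is not shown, had no TATAAA match. It had a TGANTCA match 120 bases before the start. The interferon element core was matched 194 bases before the TNFSF9 start and 187 bases before the TNFSF10 start. GC boxes began 88 and 68 bases before the start of TNFSF9 and 174 and 54 bases before that of TNF, and none of the matches overlapped. Windows were found for 8 of the 10 genes, and taking the first window of each, 3 of the 8 held TATAAA, 5 held GGGCGG, 2 held TGANTCA, 2 held the interferon element core and 1 held the kappaB consensus. Of 35116 RefSeq windows of this length, 10.72% held TATAAA, 42.64% GGGCGG, 6.57% TGANTCA, 3.02% the interferon element core and 5.21% the kappaB consensus. These matches describe letters only.

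TNFSF9 (chromosome 19, 6531026 to 6535924 in the file, on the plus strand) was the only ligand of the 4 with substantial expression. Its normalized level was 29.6, 31.6 and 34.7 CPM in the 3 control libraries. It was 48.2, 74.6 and 44.2 CPM in activin-treated cells, and 279.9, 104 and 98.6 CPM in activin + HGF-treated cells. The 3 groups did not overlap, and activin + HGF-treated library 1 was far above the other two of its group. TNFSF9 rose from the activin-treated to the activin + HGF-treated state, a step called the change after HGF from here on, by 1.53 on the log2 scale (SE 0.382, 2.89-fold, adjusted p = 0.0289, edgeR). Without activin + HGF-treated library 1 that change was 0.87 on the log2 scale and still passed the test, whereas it did not pass without activin-treated library 1 (1.37, adjusted p = 0.117 in edgeR) or library 3 (1.32, adjusted p = 0.115), nor without control library 1 or 2. Against control cells the activin + HGF-treated cells were 5.03-fold higher (log2 2.33, SE 0.392, adjusted p = 0.0017, edgeR), and this call was kept in 22 of 22 alternative analyses, with a log2 change of 1.67 without activin + HGF-treated library 1. The step from control to activin-treated cells, 0.80 on the log2 scale with a 95% interval from -0.03 to 1.63, did not pass the test (adjusted p = 0.178, edgeR).

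TNF, which encodes the founding inflammatory cytokine of the family, was not expressed at a level these libraries could measure well. Its counts were 4, 0 and 0 in control cells, 27, 4 and 0 in activin-treated cells and 8, 0 and 0 in activin + HGF-treated cells. The gene stood at 0 in 5 of 9 libraries and did not pass the filter on low counts, so it was not tested. A count of 0 allows up to 3 counts, which corresponds to between 0.0373 and 0.0551 CPM in these libraries and covers counting error only.

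TNFSF10, the TRAIL gene, had 0, 0 and 17 counts in control cells, 0, 16 and 15 in activin-treated cells and 16, 0 and 0 in activin + HGF-treated cells. Its 64 counts thus came from 4 of 9 libraries, with every group holding both zeros and values of 15 to 17. TNFSF15, which encodes the ligand TL1A of the receptor DR3, had 4 to 12 counts in the control libraries, 11 to 22 with activin and 15 to 16 after HGF. Neither TNFSF10 nor TNFSF15 passed the test in any comparison, with adjusted p between 0.357 and 0.906 in edgeR. A difference between the groups was not detectable at these counts. The 2 TRAIL receptor genes described next were therefore at 5.45 FPKM or more in libraries in which the gene of their ligand was at 0.06 FPKM or less.

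TNFRSF10B (chromosome 8, 23020133 to 23069031) gave the largest change with activin of the 4 receptor genes among the 10. Its level was 135, 133 and 139 CPM in the control libraries, 532, 594 and 544 CPM in activin-treated cells, and 202, 345 and 324 CPM in activin + HGF-treated cells. The 3 groups were separate, with activin + HGF-treated library 1 the lowest of its group and nearest to the controls. TNFRSF10B rose 4.10-fold with activin (log2 2.04, SE 0.205, adjusted p = 0.00019, edgeR), which placed it at rank 131 by p among the 20988 genes tested. This call held in 22 of 22 alternatives, with log2 changes between 1.98 and 2.11. After HGF it fell by 0.94 on the log2 scale (SE 0.199, 1.92-fold, adjusted p = 0.0162, edgeR; lost in 3 of 22 alternatives), and activin + HGF-treated cells remained 2.14-fold above control cells (log2 1.10, SE 0.200, adjusted p = 0.00259, edgeR). RHOBTB2 lies on the opposite strand and shares exonic bases with TNFRSF10B, and the strandedness of the libraries is not given in the sources used here, so reads of those bases cannot be told apart. RHOBTB2 went the other way with activin, with 25.1 to 26.4 CPM in the control libraries against 11.2 to 14.5 CPM in the activin-treated libraries.

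TNFRSF10A (chromosome 8, 23190452 to 23225102), the gene of the TRAIL receptor DR4, was 28.4, 27.7 and 31.2 CPM in control cells, 46.4, 68.7 and 40.3 CPM in activin-treated cells and 24.4, 48.9 and 48.7 CPM in activin + HGF-treated cells. Every activin-treated library was above every control library, and activin + HGF-treated library 1 lay below the controls while the other two lay above them. The difference with activin was 0.83 on the log2 scale (95% interval 0.20 to 1.47) and did not pass the test over all genes (adjusted p = 0.0699, edgeR). It passed in 6 of 22 alternatives. The difference after HGF was -0.35 on the log2 scale with an interval from -0.98 to 0.28 (adjusted p = 0.446, edgeR), and its sign turned to 0.17 without the 2 libraries that stood apart. The antisense gene TNFRSF10A-AS1 shares exonic bases with it and moved with it, with 1.45 to 2.22 CPM in the control libraries against 3.62 to 5.80 CPM in the activin-treated libraries.

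TNFRSF1A (chromosome 12, 6328757 to 6342114) was 62.1, 75.4 and 73.6 CPM in control cells, 96.4, 138 and 95.7 CPM in activin-treated cells and 70.9, 108 and 103 CPM in activin + HGF-treated cells. The activin-treated libraries did not overlap the controls, and the activin + HGF-treated libraries overlapped both other groups. The difference with activin was 0.64 on the log2 scale (95% interval 0.17 to 1.12) and did not pass the test (adjusted p = 0.0637, edgeR), although it did in 9 of 22 alternatives. After HGF it was -0.23 with an interval from -0.70 to 0.25 (adjusted p = 0.520, edgeR), turning to 0.14 without the 2 libraries that stood apart. Against control cells, activin + HGF-treated cells differed by 0.42 for TNFRSF1A (adjusted p = 0.166, edgeR) and by 0.48 for TNFRSF10A (adjusted p = 0.223, edgeR). TNFRSF10A passed without activin + HGF-treated library 1 (0.75, adjusted p = 0.0363, edgeR). Without the 2 libraries that stood apart both passed in edgeR, TNFRSF1A at 0.59 (adjusted p = 0.00368) and TNFRSF10A at 0.76 (adjusted p = 0.00127).

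FAS (chromosome 10, 88990531 to 89017059) was lower in treated cells than in control cells. Its level was 13.5, 13.3 and 13.6 CPM in the control libraries, 7.96, 2.69 and 7.85 CPM in activin-treated cells and 3.31, 3.13 and 3.32 CPM in activin + HGF-treated cells. All treated libraries were below all control libraries, and activin-treated library 2 lay with the activin + HGF-treated group. FAS fell by 2.05 on the log2 scale between control and activin + HGF-treated cells (SE 0.363, 4.15-fold, adjusted p = 0.00223, edgeR), a call kept in 22 of 22 alternatives. With activin alone it fell by 1.13 (SE 0.352, 2.18-fold, adjusted p = 0.0498, edgeR), and this call was lost in 14 of 22 alternatives, with adjusted p up to 0.152 when control library 1 was left out. It was lost when any 1 of 8 libraries was left out, while without activin-treated library 2 it was kept at -0.77. After HGF the change of -0.92 did not pass the test (adjusted p = 0.109, edgeR), whereas without activin-treated library 2 it was -1.28 and passed (adjusted p = 0.00263, edgeR). ACTA2 shares exonic bases with FAS on the opposite strand, and at 6.08 to 13.0 CPM it did not pass the test in any comparison (adjusted p from 0.318 to 0.859, edgeR).

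**Figure D2:**
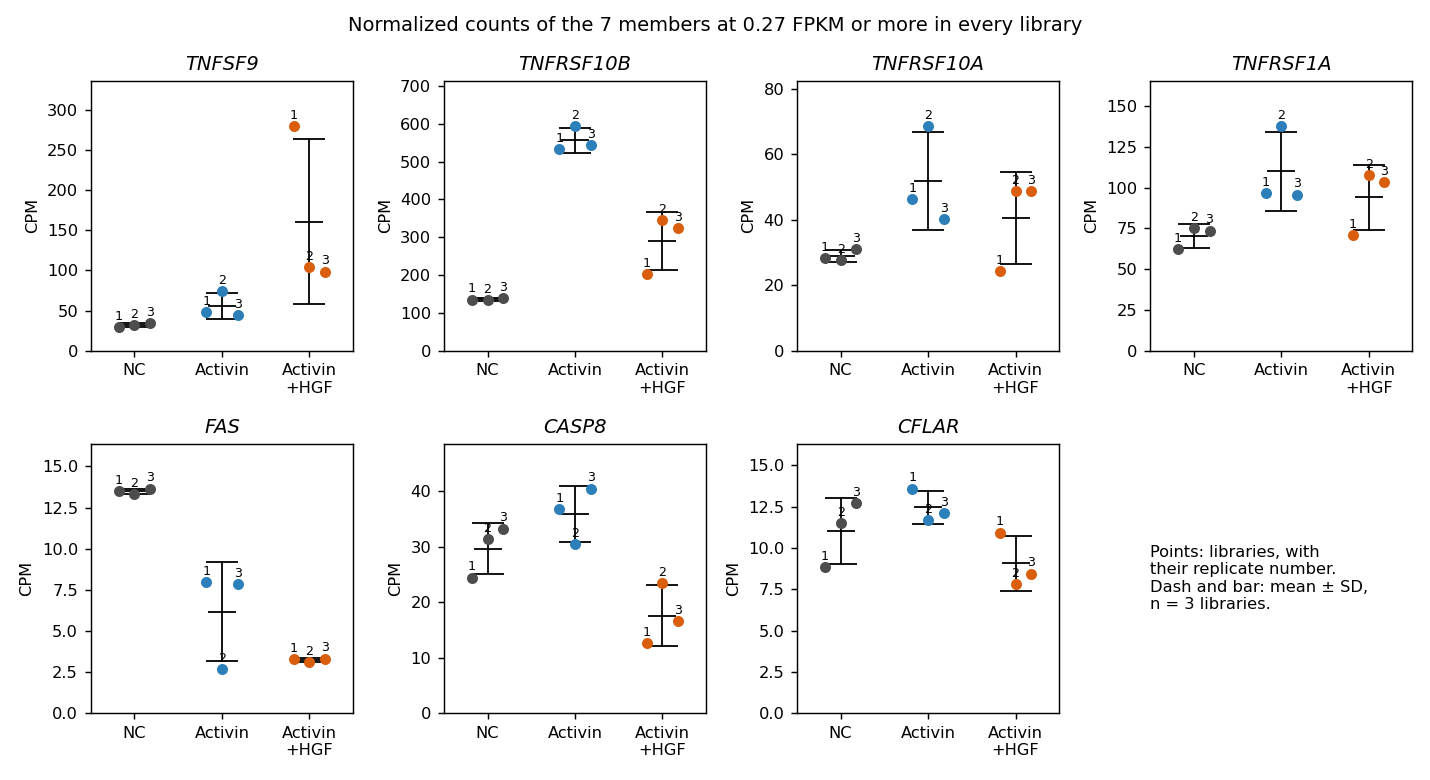
TMM-normalized level (CPM) of 7 genes in each library (points, numbered by replicate) with mean and SD of the 3 libraries of each group. The activin-treated libraries of TNFRSF10B stood at 532 to 594 CPM, all above the other groups, and the FAS libraries of activin + HGF-treated cells at 3.13 to 3.32 CPM, all below the control libraries.

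CASP8 (chromosome 2, 201233443 to 201287711), the initiator caspase of the death receptor complex, was 24.4, 31.3 and 33.2 CPM in control cells, 36.7, 30.4 and 40.4 CPM in activin-treated cells and 12.6, 23.4 and 16.6 CPM in activin + HGF-treated cells. The activin + HGF-treated libraries were below all others, and the other 2 groups overlapped. CASP8 fell by 1.03 on the log2 scale after HGF (SE 0.246, 2.04-fold, adjusted p = 0.025, edgeR) and by 0.76 between control and activin + HGF-treated cells (SE 0.245, 1.69-fold, adjusted p = 0.0384, edgeR). The first of these calls was lost in 6 of 22 alternatives and the second in 9 of 22. Without activin + HGF-treated library 1 neither passed, at -0.84 (adjusted p = 0.0576, edgeR) and -0.56 (adjusted p = 0.0988). The first was also lost without activin-treated library 1 or 3 or activin + HGF-treated library 3, and the second without control library 2 or 3 or activin + HGF-treated library 3. The difference between activin-treated and control cells was 0.27 with a 95% interval from -0.26 to 0.81 (adjusted p = 0.50, edgeR).

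CFLAR (chromosome 2, 201116154 to 201176687), the gene of the caspase inhibitor c-FLIP, was 8.84, 11.5 and 12.7 CPM in control cells, 13.6, 11.7 and 12.1 CPM in activin-treated cells and 10.9, 7.82 and 8.45 CPM in activin + HGF-treated cells. It did not pass the test in any comparison. After HGF it did pass in edgeR with library totals (-0.83, adjusted p = 0.0343) and without the 2 libraries that stood apart (-0.66, adjusted p = 0.0490). The estimates were 0.18 with activin (95% interval -0.31 to 0.66, adjusted p = 0.644, edgeR), -0.46 after HGF (interval -0.94 to 0.03, adjusted p = 0.188, edgeR) and -0.28 between activin + HGF-treated and control cells (interval -0.77 to 0.20, adjusted p = 0.362, edgeR). The antisense gene CFLAR-AS1, which shares exonic bases with it, had at most 48 counts in a library.

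Because the inhibitor and the caspase share a complex, the ratio of CFLAR to CASP8 was taken per library in FPKM. It was 0.117, 0.119 and 0.122 in control cells, 0.118, 0.123 and 0.096 in activin-treated cells and 0.274, 0.107 and 0.162 in activin + HGF-treated cells. The mean ratio of activin + HGF-treated cells, 0.181 ± 0.0852 (SD, n = 3), rested on library 1, and that group overlapped both others. The exact two-sided permutation test gave p = 0.7 for activin-treated against control cells, p = 0.3 for activin + HGF-treated against activin-treated cells and p = 0.4 against control cells. With 3 libraries against 3 the smallest p this test can give is 0.1.

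Of the 10 genes, 9 passed the filter on low counts and were tested. With activin, 1 was called higher (TNFRSF10B) and 1 lower (FAS), while 9.58% of all genes tested were called higher and 8.41% lower. After HGF, 1 was called higher (TNFSF9) and 2 lower (TNFRSF10B and CASP8), beside 7.41% and 5.45% of all genes. Between activin + HGF-treated and control cells, 2 were called higher (TNFSF9 and TNFRSF10B) and 2 lower (FAS and CASP8), beside 16.4% and 15.0%. The median log2 change of the 9 tested genes was 0.80, -0.46 and 0.42 in these 3 comparisons, against 0.02, -0.04 and -0.03 for all tested genes. The comparisons share libraries in pairs, so they are not independent of each other. The number called with activin depended on the analysis and ranged from 1 to 5. Without activin-treated library 2 and activin + HGF-treated library 1 it was 5 with activin and 5 after HGF.

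**Figure D3:**
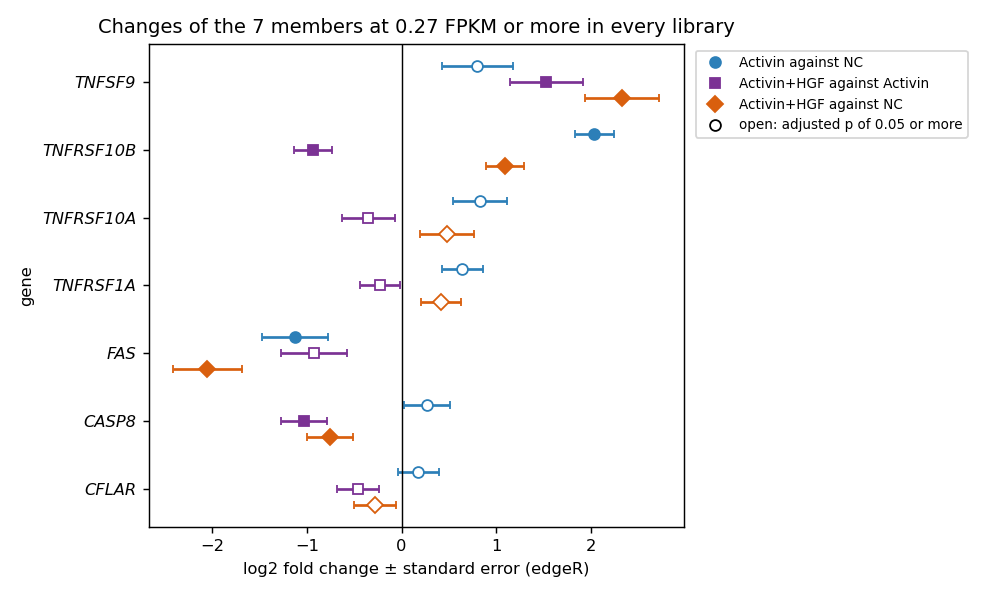
Log2 fold changes with their standard errors from edgeR for 7 genes in the 3 comparisons; filled symbols passed an adjusted p of 0.05. TNFRSF10B lay at 2.04 with activin and at -0.94 after HGF, and FAS lay below 0 in all 3 comparisons.

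Activin-treated library 2 and activin + HGF-treated library 1 also stood apart within these genes. In CPM, activin-treated library 2 had the highest TNFSF9, TNFRSF1A, TNFRSF10A and TNFRSF10B and the lowest FAS, CASP8 and CFLAR of its group. In FPKM its TNFRSF10B was the lowest of the group, at 101.43 against 106.85 and 107.48, so that place depends on the scaling. Activin + HGF-treated library 1 had the highest TNFSF9 and CFLAR and the lowest TNFRSF1A, TNFRSF10A, TNFRSF10B and CASP8 of its group. The part of these libraries in the results was measured only by leaving them out.

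The partners of these genes in the same families were examined next. Among 14 other TNF superfamily ligands, 10 were in the table and 9 were tested. CD70, a ligand of activated lymphocytes, rose 2.38-fold with activin (log2 1.25, SE 0.351, adjusted p = 0.0328, edgeR), from 0.939 ± 0.222 to 2.24 ± 0.219 CPM (SD, n = 3). TNFSF4 fell by 1.51 on the log2 scale with activin (adjusted p = 0.0413, edgeR) at no more than 0.52 FPKM, a call lost in 11 of 20 alternatives (adjusted p up to 0.156, without control library 1). TNFSF18 fell by 2.52 between control and activin + HGF-treated cells (adjusted p = 0.0135, edgeR) at no more than 0.82 FPKM. It had 4, 33 and 23 counts in activin + HGF-treated libraries 1, 2 and 3. With activin edgeR called 1 of the 9 higher and 1 lower (11.1% each, beside 9.58% and 8.41% of all genes tested). After HGF edgeR called 0 of the 9 higher and 0 lower, beside 7.41% and 5.45% of all genes (0 and 1 at an unadjusted p under 0.05, and 0 and 1 with DESeq2). Between activin + HGF-treated and control cells these were 0 and 1 (0% and 11.1%, beside 16.4% and 15.0%; 0 and 2 with DESeq2). TNFSF4 and TNFSF18 were named after their values were seen. FASLG, CD40LG, TNFSF8 and TNFSF11 were not analysed here.

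Among 25 other TNF receptor superfamily genes, 19 were tested. With activin 6 were called higher and 2 lower (31.6% and 10.5% of those tested), after HGF 4 and 2 (21.1% and 10.5%), and between activin + HGF-treated and control cells 8 and 1 (42.1% and 5.26%). Of all genes tested, 9.58% and 8.41%, 7.41% and 5.45%, and 16.4% and 15.0% were called higher and lower in these comparisons. The median log2 changes were 0.47, 0.29 and 0.38. TNFRSF12A, the receptor for TWEAK, rose with activin from 48.0 ± 8.08 to 200 ± 48.1 CPM (log2 2.06, SE 0.221, adjusted p = 0.00027, edgeR) and stood at 320 ± 49.8 CPM after HGF, 6.67-fold above control cells (adjusted p = 4.33e-05, edgeR). NGFR, the p75 neurotrophin receptor, rose 3.25-fold with activin, from 20.0 ± 1.61 to 65.0 ± 14.8 CPM (adjusted p = 0.000431, edgeR). LTBR, the lymphotoxin receptor, fell 1.80-fold with activin (log2 -0.85, adjusted p = 0.0383, edgeR), a call lost in 10 of 22 alternatives. After HGF, RELT rose by 0.93 on the log2 scale (adjusted p = 0.0407, edgeR), TNFRSF21, the death receptor DR6, rose 1.88-fold from 156 ± 32.3 to 294 ± 34.6 CPM (adjusted p = 0.013, edgeR), and TNFRSF13C, the BAFF receptor, fell 3.26-fold (adjusted p = 0.0306, edgeR). RELT lost that call in 14 of 22 alternatives, TNFRSF21 and TNFRSF13C in 5 each. Between activin + HGF-treated and control cells RELT was 3.46-fold higher (adjusted p = 0.000825, edgeR), a call kept in 22 of 22.

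The receptors that bind the same ligands as the genes above were named after their values were seen. TNFRSF9, the receptor 4-1BB for the product of TNFSF9, had 8, 19 and 8 counts in control cells, 313, 403 and 309 counts in activin-treated cells and 28, 40 and 52 counts in activin + HGF-treated cells. The 3 groups did not overlap, and the level remained under 1 FPKM in all libraries. TNFRSF9 rose by 4.84 on the log2 scale with activin (SE 0.488, adjusted p = 0.00019, edgeR) and fell by 2.95 after HGF (SE 0.440, adjusted p = 0.00539, edgeR), and both calls were kept in 22 of 22 alternatives. Without control library 2 the rise with activin was 5.45. The ligand TNFSF9 was thus highest in activin + HGF-treated cells, and its receptor gene in activin-treated cells. TNFRSF10D, a TRAIL receptor without a working death domain, stood at 76.6 ± 1.06 CPM in control cells, 89.7 ± 12.4 CPM in activin-treated cells and 130 ± 15.8 CPM in activin + HGF-treated cells (SD, n = 3). It rose by 0.76 on the log2 scale between control and activin + HGF-treated cells (adjusted p = 0.00624, edgeR), while its difference with activin was 0.23 (adjusted p = 0.390, edgeR). TNFRSF10C, the other decoy receptor for TRAIL, was at 3.28 ± 1.08, 1.53 ± 0.172 and 1.87 ± 0.568 CPM in the 3 groups and did not pass the test with activin (log2 -1.10, adjusted p = 0.0558, edgeR). TNFRSF25, the receptor DR3 for TL1A, rose by 1.12 between control and activin + HGF-treated cells (adjusted p = 0.0032, edgeR) and by 0.70 with activin (adjusted p = 0.0434, edgeR), the latter call being lost in 10 of 22 alternatives. EDA2R, the ectodysplasin A2 receptor, is named as the other receptor gene called lower with activin beside LTBR, not for a shared ligand. It had 4, 23 and 16 counts in control cells, 0 in each activin-treated library and 12, 12 and 8 counts after HGF. At these low counts the call with activin (adjusted p = 0.0218, edgeR) was lost in 6 of 17 alternatives. The call of a rise after HGF (adjusted p = 0.0340, edgeR) was lost in 10 of 17. TNFRSF1B, the second TNF receptor, was under 0.6 FPKM in every library.

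Of 30 genes of the receptor complexes and the NF-kB arm, 28 were tested. With activin 4 were called higher and 1 lower (14.3% and 3.57%, beside 9.58% and 8.41% of all genes tested), and after HGF 0 and 1 (0% and 3.57%, beside 7.41% and 5.45%). Between activin + HGF-treated and control cells 5 were higher and 5 lower (17.9% each), near the 16.4% and 15.0% of all genes. The median log2 changes were -0.07, -0.17 and -0.09, close to those of all genes. RBCK1, which encodes the linear ubiquitin ligase subunit HOIL-1, rose with activin from 41.1 ± 3.42 to 265 ± 36.9 CPM (6.44-fold, log2 2.69, SE 0.165, adjusted p = 1.2e-05, edgeR). After HGF, when edgeR called 0 genes of this list higher (1 at an unadjusted p under 0.05 and 0 with DESeq2), RBCK1 fell 1.48-fold to 179 ± 1.02 CPM (adjusted p = 0.0403, edgeR), the 1 call of that comparison, which was lost in 11 of 22 alternatives. BIRC3, the inhibitor of apoptosis cIAP2, rose 8.93-fold with activin, from 3.39 ± 0.590 to 30.3 ± 17.3 CPM (adjusted p = 0.00224, edgeR). TNFAIP3, the NF-kB feedback inhibitor A20, was named after its values were seen and rose by 2.03 on the log2 scale with activin (adjusted p = 0.00586, edgeR). MLKL, the effector of necroptosis, fell 3.26-fold with activin (adjusted p = 0.0121, edgeR) and 3.63-fold between control and activin + HGF-treated cells (adjusted p = 0.00499, edgeR). RNF31, the catalytic subunit HOIP of the same ubiquitin ligase as RBCK1, fell 2.94-fold between control and activin + HGF-treated cells (adjusted p = 0.00985, edgeR). That change is uncertain because RNF31 shares exonic bases with AL136295.5, a protein-coding gene on the same strand.

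Of 30 other caspases, BCL2 family members and associated apoptosis genes, 29 were tested. With activin 5 were called higher and 2 lower (17.2% and 6.90%, beside 9.58% and 8.41% of all genes tested). After HGF these were 5 and 1 (17.2% and 3.45%, beside 7.41% and 5.45%), and between activin + HGF-treated and control cells 9 and 4 (31.0% and 13.8%, beside 16.4% and 15.0%). The median log2 changes were 0.24, 0.16 and 0.11. PMAIP1, encoding NOXA, rose 3.18-fold with activin, from 29.7 ± 13.5 to 94.7 ± 31.0 CPM (adjusted p = 0.0101, edgeR), and BMF rose 6.78-fold, from 2.74 ± 2.90 to 18.5 ± 3.20 CPM (log2 2.76, adjusted p = 0.0278, edgeR). The BMF change was 4.10 on the log2 scale without control library 2 and 2.23 without control library 3, and the call was lost without control library 1 or any 1 activin-treated library. BBC3, encoding PUMA, was 2.12-fold higher after HGF (adjusted p = 0.0235, edgeR) and 6.63-fold higher in activin + HGF-treated than in control cells (adjusted p = 9.06e-05, edgeR), at 119 ± 35.1 against 17.9 ± 1.65 CPM. BID, which CASP8 cleaves to link death receptors to mitochondria, fell 2.50-fold with activin, from 41.5 ± 2.15 to 16.6 ± 3.49 CPM (adjusted p = 0.0015, edgeR), and stood at 32.6 ± 4.14 CPM after HGF. BAX, a pore-forming effector, fell 1.68-fold with activin (adjusted p = 0.0207, edgeR), from 55.2 ± 7.09 to 32.8 ± 6.31 CPM. It stood at 56.2 ± 4.76 CPM after HGF. XIAP, a caspase inhibitor, rose 3.14-fold after HGF (adjusted p = 0.0245, edgeR). CASP6 fell 1.86-fold between control and activin + HGF-treated cells (adjusted p = 0.0181, edgeR). BCL2L2, at 51.7 ± 8.12 CPM in activin-treated cells and 4.72 ± 0.123 CPM after HGF (log2 -3.45, adjusted p = 0.0207, edgeR), is uncertain because it shares exons with the readthrough gene BCL2L2-PABPN1. Exons of TNFRSF12A, LTBR, NGFR, RELT, RNF31, BMF and CASP6 also overlap a gene on the opposite strand.

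The deposited table assigns KEGG pathways to genes, and 3 of these, on TNF signaling and cell death, were counted in the same way. Of the TNF signaling pathway, 99 of 108 genes were tested, and 22 were called higher and 5 lower with activin (22.2% and 5.05%), 6 and 11 after HGF (6.06% and 11.1%), and 26 and 12 between activin + HGF-treated and control cells (26.3% and 12.1%). The median log2 change was 0.32, -0.18 and 0.12. Of the apoptosis pathway, 124 of 130 were tested, with 16 higher and 13 lower (12.9% and 10.5%), 18 and 4 (14.5% and 3.23%), and 32 and 24 (25.8% and 19.4%) in the same order. Of the necroptosis pathway, 123 of 144 were tested, with 17 and 15 (13.8% and 12.2%), 18 and 11 (14.6% and 8.94%), and 35 and 23 (28.5% and 18.7%). The shares of all tested genes were 9.58% and 8.41% with activin, 7.41% and 5.45% after HGF and 16.4% and 15.0% against control cells. These pathways share genes with each other and with the 10 genes.

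For the 3 genes with the largest changes, the genes whose log2 CPM over the 9 libraries was most alike were listed from 12082 genes at 1 FPKM or more. For TNFSF9 these were AVPI1 (Pearson r = 0.997), SPSB1 and WDR45B (both 0.994 or above). For FAS they were KIF13A (r = 0.994), BPTF (0.992) and CCAR1 (0.990). For TNFRSF10B they were CYP4F11 (r = 0.997), KLHL29 (0.994) and BEST1 (0.993). With 3 groups of 3 libraries such values can describe a shared order of groups or single libraries that stood apart. Among these were activin + HGF-treated library 1 for TNFSF9 (279.9 CPM) and activin-treated library 2 for FAS (2.69 CPM). The points also share their libraries and depth.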

How the data were processed

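Total RNA of HCT116 cells was depleted of ribosomal RNA and sequenced as paired ends in 9 libraries. Per the submitters' processing notes the tools were cutadapt 1.9, HISAT2 2.0.4 and StringTie 1.3.4d, and the annotation release is not given in the sources used here. The authors deposited unnormalized read counts for each gene, and beside them FPKM, which the authors had scaled to library size and gene length. Of the low counts (1 to 40), 35.0% were multiples of 4 (25% if even), so a low count need not be a number of single fragments. Of 32930 gene identifiers shared with GENCODE 29 (GRCh38), 86.86% had the same start or end, so the file's coordinates are given as GRCh38.

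Groups followed the labels. Table columns were matched to libraries by the description label. The column names of the activin + HGF-treated group hold only the cell line's name and a number, so comparisons with that group rest on that label alone. Nothing in the sources states that libraries of a group came from separate cultures, so p-values measure the spread between these libraries, which may be technical. Counts were tested with edgeR 4.0.16 in R 4.3.3 (filterByExpr, TMM, quasi-likelihood) on all 9 libraries, and Benjamini-Hochberg adjusted p under 0.05 over 20988 of 33861 genes was a call. CPM used TMM library sizes. Standard errors are approximate (change divided by the root of F). Reads of a gene and its opposite-strand neighbour may be mixed. The KEGG terms came from the deposited table, and no deposited per-library column was left out (0).

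The 10 genes and the lists around them were chosen with earlier results of these data known. Named list genes were up to 2 largest called increases and 2 largest decreases per list and comparison at 1 FPKM or more in the higher group; for the 3 members with the largest change, the 3 genes with the highest Pearson r. Receptors of the same ligands were added after their values were seen, as were TNFAIP3, FADD, TRADD, RIPK1, TNFSF4, TNFSF18, EDA2R and RTEL1-TNFRSF6B. Alternatives used DESeq2 1.42.0, limma 3.58.1 on log2(FPKM + pseudocount 0.1 or 1), other scaling, filters and thresholds, a replicate block and libraries left out. Scripts were tested on simulated data. Figures were drawn with matplotlib 3.10.9.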

Additional observations from a re-analysis of the deposited data

How the results depend on the processing

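The 3 calls of activin + HGF-treated against control cells for TNFSF9, FAS and TNFRSF10B and the TNFRSF10B call with activin kept their direction and their side of the threshold in 22 of 22 alternatives. The number of the 10 genes called with activin, 2, was 1 with RLE scaling, with library totals, without a filter and at adjusted p under 0.01, was 4 with DESeq2, with the filter of 1 CPM in 3 libraries, with the 2 groups alone and with counts divided by 4, and was 5 without the 2 libraries that stood apart, a choice made after seeing the data. It ranged from 1 to 4 with single libraries left out. After HGF the 3 called became 0 with the 2 groups alone or at adjusted p under 0.01, 5 without the 2 libraries, and 1 to 4 with single libraries left out. Over all genes, the 3776 calls with activin became 2394 with a log2 change of at least 1, 1688 at adjusted p under 0.01, 6480 without the 2 libraries and 2021 to 4729 with single libraries left out. The 2698 calls after HGF became 4510 with DESeq2, 714 with the 2 groups alone, 1697 with a log2 change of at least 1, 488 at adjusted p under 0.01, 5862 without the 2 libraries and 686 to 4533 with single libraries left out (4533 without activin-treated library 2). The 6587 calls against control cells became 3492 at adjusted p under 0.01 and 4260 to 7798 with single libraries left out. Causes were not tested.

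Signs turned in 7 cases: TNFSF15 after HGF with library totals (-0.10), TNFRSF1A (0.14) and TNFRSF10A (0.17) after HGF without the 2 libraries, and TNFSF10 in activin + HGF-treated against control cells without control library 1 (-0.18), control library 2 (-0.19), activin + HGF-treated library 1 (-5.35) or the 2 libraries (-5.37), on counts of 0 to 17 (5.69 without control library 3). Library totals shifted the median of all genes by 0.08, -0.34 and -0.27 on the log2 scale and made the higher calls 63.5%, 22.3% and 36.3% of calls, against 53.2%, 57.6% and 52.3% with TMM. The ratio of group mean CFLAR to CASP8 ratios ranged from 1.20 to 1.94 after HGF.

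No pairing by replicate number was seen: deviations of same-numbered libraries correlated at -0.06 to 0.09. These values include the 2 libraries that stood apart, which could hide a weaker link. Whether libraries with the same number shared a culture or batch was not tested. A replicate block gave 3, 2 and 4 called genes of the 10. TNFRSF1A was added with activin (0.63, adjusted p = 0.042 in edgeR) and TNFSF9 lost after HGF (1.44, adjusted p = 0.0541 in edgeR). List counts with activin ranged over the alternatives from 3 to 10 in other receptors, 4 to 9 in the receptor complex list, 2 to 14 in caspases and BCL2 family and 17 to 41 in TNF signaling. After HGF they ranged from 1 to 9, 0 to 10, 0 to 10 and 5 to 39. Depth limits TNF, TNFSF10 and TNFSF15, for which no group difference was detectable. With a single library left out, further calls did not pass: with activin CD70 and LTBR (control 1, 2 or 3, activin-treated 1 or 3), TNFSF4 (any control or activin-treated, or activin + HGF-treated 3), TNFRSF25 (the same, or activin + HGF-treated 2), MLKL (control 1), BMF (control 1, any activin-treated) and BAX (control 1 or 2, activin-treated 1 or 3). After HGF these were TNFRSF21, TNFRSF13C, RELT, RBCK1, XIAP, BBC3 and BCL2L2 (activin-treated 1 or 3, and for all but TNFRSF21 at least 1 activin + HGF-treated library), and against control cells BCL2L2, CASP6 and RIPK1.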

Other observations

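The decoy receptor gene TNFRSF6B, which encodes a soluble protein that binds FAS ligand, was counted 1158, 1 and 1695 times in control cells and had 0 or 1 count in each of the 6 treated libraries, so it did not pass the filter on low counts. The readthrough gene RTEL1-TNFRSF6B, which covers the same exons, was at 489, 1511 and 515 counts in control cells, 3488 to 3921 counts in activin-treated cells and 11697 to 13879 counts in activin + HGF-treated cells. In control library 2 TNFRSF6B was at 1 count where the readthrough gene was at 1511, against 489 and 515 in the other two. How the counting divided reads between these genes cannot be read from the table, so neither gene is given as a change.

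The adaptor gene FADD, which joins CASP8 to the death receptors, had 248 counts in activin + HGF-treated library 1 and between 1758 and 2685 counts in the other 8 libraries. RIPK1, the kinase of the TNFRSF1A complex, had 262 counts in that library and 1312 and 1318 counts in the others of its group, against 2529 to 3608 counts in control cells. It fell by 1.53 on the log2 scale between control and activin + HGF-treated cells (adjusted p = 0.0195, edgeR) and by 1.11 without that library (adjusted p = 0.00262, edgeR), and the call was lost without control library 3. TRADD, the adaptor of TNFRSF1A, was at 7.01 ± 0.591, 10.8 ± 3.88 and 12.9 ± 2.43 CPM in the 3 groups (SD, n = 3), and its increase of 0.89 between control and activin + HGF-treated cells (adjusted p = 0.0303, edgeR) was lost in 10 of 22 alternatives.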
